A study of Mus musculus with 8 samples.

Results

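The Tudor domain germ granule family was examined as 10 genes chosen by name, *Tdrd1*, *Tdrd3*, *Tdrd5*, *Tdrd6*, *Tdrd7*, *Tdrd9*, *Tdrd12*, *Tdrkh*, *Rnf17* and *Stk31*, of the 21058 genes in the deposited tables. The choice was made with earlier results of these data known. All 10 were among the 17643 genes that held at least 10 reads summed over the 8 libraries and were tested. RNA had been sequenced from pachytene spermatocytes of 4 *Arid1a* WT and 4 *Arid1a* cKO samples, to ask how loss of ARID1A, a subunit of the BAF class of SWI/SNF chromatin remodelers, changes transcription in male meiosis. Males of the *Arid1a* cKO group, of genotype Arid1a fl/fl, had 1 copy of the Stra8-Cre transgene, whose promoter is active in early postnatal spermatogonia, and *Arid1a* WT males carried floxed *Arid1a* without Cre, on a CD1 background. Cells were pooled from testes of adult males and enriched by Sta-Put sedimentation at unit gravity, and the study describes inefficient Cre activity, so that cKO fractions hold some spermatocytes that kept ARID1A.

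Tudor domains are folds that bind methylated arginine or lysine on partner proteins. In germ cells, Tudor proteins bind the methylated arginines of PIWI proteins and hold them in germ granules, which are the intermitochondrial cement of spermatocytes and the chromatoid body of round spermatids. There they serve the making of piRNAs, the small RNAs that silence transposons and, at pachynema, arise in large numbers from intergenic loci.

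Libraries held 18308688 to 22044507 estimated reads in *Arid1a* WT and 15850961 to 21626772 in *Arid1a* cKO. *Arid1a* itself was at 98.8 to 128 CPM (reads scaled to library size) in *Arid1a* WT and 76.4 to 82.9 CPM in *Arid1a* cKO, a log2 fold change of -0.51 ± 0.07 (SE; edgeR, Benjamini-Hochberg adjusted p = 2.31e-05). By RT-PCR the study found *Arid1a* transcripts without the floxed exons in cKO spermatocytes. Reads over the whole gene therefore do not measure how much ARID1A was lost. Of 9 pachytene markers, 2 rose and 7 fell, and their summed level was 8922 to 10835 CPM in *Arid1a* WT and 7903 to 8574 CPM in *Arid1a* cKO. All 16 round and elongating spermatid markers rose, from a sum of 2259 to 2477 CPM to a sum of 9867 to 10116 CPM. All 8 Sertoli cell markers fell, from 431 to 490 CPM to 124 to 129 CPM. Of 7 Leydig and peritubular markers 2 rose and 5 fell (63.1 to 67.6 CPM in *Arid1a* WT and 19.4 to 21.96 CPM in *Arid1a* cKO), and of 12 spermatogonial markers 9 rose and 1 fell (213 to 217 CPM and 196 to 209 CPM). Of 9 leptotene and zygotene markers 6 rose and 2 fell (205 to 246 CPM and 257 to 268 CPM), and of 8 macrophage and blood markers tested 6 rose and 1 fell (5.40 to 6.51 CPM and 12.7 to 15.2 CPM). No marker of these lists was at 0 in every library. What these shifts contribute to the results on the Tudor genes was not tested, and in such bulk samples fewer cells of a type cannot be told apart from less RNA per cell. The labels call the libraries biological replicates but do not say whether each came from a separate purification, so p-values measure the spread between these samples only.

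Loss of ARID1A was accompanied by lower read counts from 9 of the 10 Tudor genes and by a higher count from *Tdrd7* alone, and of the 9 only *Rnf17* turned to a rise when its level was taken per transcript length. The falls were uneven. *Tdrd5* fell 8.71-fold, *Tdrd1* 6.70-fold, *Stk31* 3.91-fold, *Tdrd12* 3.27-fold, *Tdrkh* 2.32-fold and *Tdrd9* 2.16-fold. *Tdrd3* fell 1.29-fold, *Tdrd6* fell 1.26-fold, *Rnf17* fell by 0.26 log2 units in reads but not per length, and *Tdrd7* rose 1.36-fold. Calls were made with edgeR's quasi-likelihood test on read counts after TMM normalization, with p-values adjusted by the Benjamini-Hochberg method and a threshold of 0.05. Because 74% of all genes tested were called in either direction, 36.5% as higher and 37.5% as lower, a call by itself says little about a gene of this family. A fall of at least 1 log2 unit was called for 6 of the 10 and for 16% of all genes tested, although the fall of *Tdrkh*, among the 6, was under 1 log2 unit once transcript length was taken into account (-0.79 with edgeR and length offsets). The 4 *Arid1a* WT and 4 *Arid1a* cKO libraries did not overlap in CPM for any of the 10, which was also the case for 68.9% of all genes tested. The median log2 fold change was -1.16 over the 10 genes and -0.02 over all genes tested.

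Compared per length, in TPM (transcripts as a share of all transcripts in the library), the family was led in *Arid1a* WT by *Tdrd6* at 605 ± 29.7 TPM (SD, n = 4), followed by *Tdrd7* at 229 ± 9.98 TPM, *Rnf17* at 196 to 207 TPM, *Tdrd1* at 144 ± 4.70 TPM and *Tdrd5* at 114 ± 1.55 TPM. None of these 5 overlapped the next gene in any library. *Tdrd12* at 101 ± 4.30 TPM, *Stk31* at 99.7 ± 8.17 TPM and *Tdrd9* at 85.0 ± 8.72 TPM overlapped their neighbours in this order, as did *Tdrkh* at 47.9 ± 2.50 TPM and *Tdrd3* at 43.2 ± 3.80 TPM at its lower end. In *Arid1a* cKO the first 3 places were kept by *Tdrd6* at 443 ± 18.0 TPM, *Tdrd7* at 298 ± 9.89 TPM and *Rnf17* at 269 ± 11.3 TPM, again without overlap. Below them the order was rearranged. *Tdrd1* went from rank 4 to rank 9 at 19.4 ± 0.437 TPM and *Tdrd5* from rank 5 to rank 10 at 11.8 ± 0.398 TPM, while *Tdrd9* at 35.8 ± 2.03 TPM and *Tdrd12* at 35.4 ± 1.93 TPM, which overlapped each other, came to ranks 4 and 5. *Tdrd3* followed at 30.4 ± 1.03 TPM, above *Tdrkh* at 25.9 ± 2.38 TPM and *Stk31* at 22.1 to 24.0 TPM, which overlapped. The summed level of the 10 genes was 1640 to 1713 TPM in *Arid1a* WT and 1173 to 1205 TPM in *Arid1a* cKO. *Tdrd6*, *Tdrd7* and *Rnf17* together made up 61.9% ± 0.465 of that sum in *Arid1a* WT and 84.8% ± 0.410 in *Arid1a* cKO (SD, n = 4 each). TPM count every annotated transcript of a gene, short and non-coding ones included, a limit given below for *Tdrd6* and *Tdrd7*.

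**Figure D1:**
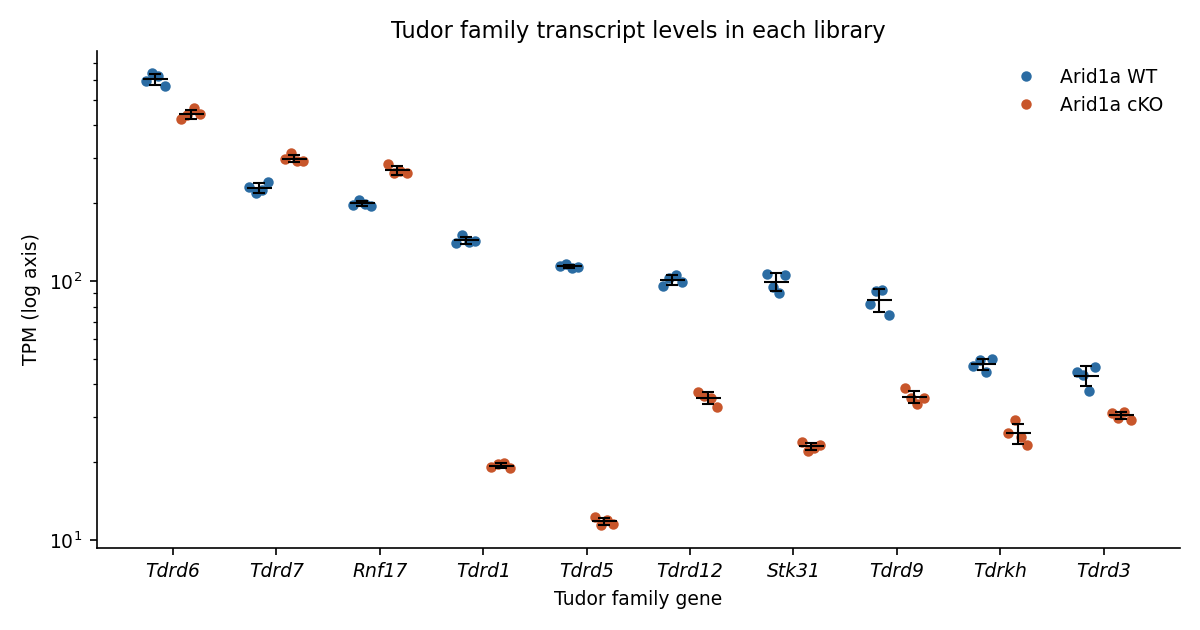
Level of each Tudor family gene in TPM on a log axis, genes ordered by their *Arid1a* WT mean, with 1 point per library, bars for the mean and SD of 4 libraries, *Arid1a* WT in blue and *Arid1a* cKO in orange. The 6 genes that lost most, such as *Tdrd5* at 114 against 11.8 TPM, lie in the middle and lower range, whereas *Tdrd6*, *Tdrd7* and *Rnf17* lie between 261 and 466 TPM in *Arid1a* cKO.

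TPM and CPM scale the libraries differently, because the 21058 listed genes took up 78.1% to 81.1% of all TPM in *Arid1a* WT and 88.1% to 88.6% in *Arid1a* cKO. An unchanged share of the listed RNA therefore appears as a higher TPM in *Arid1a* cKO. With the listed genes rescaled to the same sum, limma on log2(TPM + 1) gave a smaller rise for *Tdrd7*, 0.22, and larger falls for *Tdrd3*, -0.64, and *Tdrd6*, -0.60, with Benjamini-Hochberg adjusted p-values of 0.000492, 3.82e-06 and 9.26e-07.

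TDRD5, TDRD1, TDRD9, TDRD12 and TDRKH act in piRNA biogenesis. TDRD5 binds the long precursors of pachytene piRNAs and is needed for their processing. *Tdrd5* (chromosome 1, 156255296 to 156304304, GRCm38.p6) was at 275, 262, 249 and 268 CPM in *Arid1a* WT replicates 1 to 4 and at 31.4, 29.7, 30.3 and 29.6 CPM in *Arid1a* cKO. Every *Arid1a* cKO library was thus far under every *Arid1a* WT library, with a log2 fold change of -3.12 ± 0.05 (SE; edgeR, Benjamini-Hochberg adjusted p = 4.01e-14), the largest fall in the family. Exons of *Tdrd5* overlap 176 bases of 4930518J20Rik on the opposite strand, and 2.30% of its 31-base words occur in other genes.

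TDRD1 is a component of intermitochondrial cement that binds the PIWI protein MILI. *Tdrd1* (chromosome 19, 56826171 to 56870012) was at 481, 490, 455 and 487 CPM in *Arid1a* WT and at 71.3, 72.0, 72.5 and 69.5 CPM in *Arid1a* cKO. The libraries of each genotype lay close together and the genotypes far apart, with a log2 fold change of -2.74 ± 0.05 (edgeR, Benjamini-Hochberg adjusted p = 4.01e-14).

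TDRD12, an ATPase-domain protein required for secondary piRNA production, and TDRD9, an RNA helicase that works with the PIWI protein MIWI2 in fetal germ cells, fell to different extents. *Tdrd12* (chromosome 7, 35466941 to 35537784) was at 150, 155, 158 and 140 CPM in *Arid1a* WT and at 49.1, 46.0, 45.8 and 42.9 CPM in *Arid1a* cKO, a log2 fold change of -1.71 ± 0.06 (edgeR, Benjamini-Hochberg adjusted p = 1.37e-12). *Tdrd9* (chromosome 12, 111971488 to 112068854) was at 247, 248, 243 and 239 CPM in *Arid1a* WT and at 117, 113, 112 and 111 CPM in *Arid1a* cKO, a log2 fold change of -1.11 ± 0.04 (edgeR, Benjamini-Hochberg adjusted p = 1.03e-11). No library of *Arid1a* cKO reached the lowest of *Arid1a* WT for either gene.

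TDRKH is anchored to mitochondria, where it recruits PIWI proteins for trimming of piRNA ends. *Tdrkh* (chromosome 3, 94413243 to 94434854) was at 82.0, 80.7, 75.9 and 77.1 CPM in *Arid1a* WT and at 33.6, 34.8, 33.7 and 34.0 CPM in *Arid1a* cKO, a log2 fold change of -1.21 ± 0.05 (edgeR, Benjamini-Hochberg adjusted p = 1.16e-11). On scales corrected for transcript length the fall was smaller, -0.79 with edgeR and length offsets and -0.77 with DESeq2 and length offsets, with Benjamini-Hochberg adjusted p-values of 1.23e-06 and 3.79e-16. The value for *Tdrkh* is uncertain in a further way, because 2255 bases of its exons lie opposite *Oaz3*, an antizyme gene of spermatids, and 39.3% of the 31-base words of its longest annotated transcript, of 5692 bases, are the complement of *Oaz3* words. *Oaz3*, chosen for mention after its values were seen, moved the other way, from 191 to 212 CPM in *Arid1a* WT to 794 to 812 CPM in *Arid1a* cKO. Whether the authors' quantification used the strand of the reads is not given in the sources used here. The other 7 annotated *Tdrkh* transcripts shared no 31-base word with another gene.

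STK31 is a testis protein with a Tudor domain and a kinase-like domain. *Stk31* (chromosome 6, 49395506 to 49469506) was at 231, 198, 184 and 228 CPM in *Arid1a* WT and at 56.6, 50.7, 53.3 and 54.8 CPM in *Arid1a* cKO. The *Arid1a* WT libraries were spread more widely than for *Tdrd1* or *Tdrd9*, and the difference of -1.97 ± 0.07 log2 units (edgeR, Benjamini-Hochberg adjusted p = 6.64e-12) was larger than that spread.

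Promoter windows are shown for the 3 genes with the largest falls and for the gene that rose in read counts. They are shown because the pachytene piRNA programme is driven by the transcription factor A-MYB (*Mybl1*). The mRNA of *Mybl1* was at 160 to 185 CPM in *Arid1a* WT and at 67.7 to 74.2 CPM in *Arid1a* cKO, a log2 fold change of -1.30 ± 0.06 (edgeR, Benjamini-Hochberg adjusted p = 4.53e-11). Each sequence is the most upstream of the windows given for the gene in the RefSeq promoter table of GRCm38.p6, from 250 bases before to 50 bases after an annotated start, which need not be the outer end of the gene's RefSeq record, printed 5′ to 3′ on the strand of the gene. Capitals mark matches, on either strand, to the MYB core CAACNG or TAACNG and to the palindromic E-box CACGTG. The windows are chr1:156303299-156303598 on the minus strand for *Tdrd5* and chr19:56825959-56826258 on the plus strand for *Tdrd1*. Those of *Stk31* and *Tdrd7*, both on the plus strand, are chr6:49395289-49395588 and chr4:45965085-45965384. The *Tdrd5* window lies wholly inside the gene, whose RefSeq record starts at 156304304 on this strand. It is also downstream of the start of the longest annotated *Tdrd5* transcript, at 156303664. The *Tdrd7* window likewise lies inside its RefSeq record, which starts at 45965027.
Tdrd5: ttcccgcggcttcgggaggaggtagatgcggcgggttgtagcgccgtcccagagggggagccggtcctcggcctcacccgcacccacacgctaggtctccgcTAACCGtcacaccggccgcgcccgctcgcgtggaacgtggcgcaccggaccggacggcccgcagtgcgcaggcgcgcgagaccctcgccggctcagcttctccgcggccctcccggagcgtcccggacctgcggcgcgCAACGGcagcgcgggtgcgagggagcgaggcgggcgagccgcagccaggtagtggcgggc
Tdrd1: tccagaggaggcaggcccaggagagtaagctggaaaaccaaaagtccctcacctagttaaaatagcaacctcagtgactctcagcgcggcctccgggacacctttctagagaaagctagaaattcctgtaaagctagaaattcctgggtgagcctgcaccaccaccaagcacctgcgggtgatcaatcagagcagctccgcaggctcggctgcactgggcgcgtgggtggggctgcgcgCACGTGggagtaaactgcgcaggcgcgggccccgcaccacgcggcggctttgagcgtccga
Stk31: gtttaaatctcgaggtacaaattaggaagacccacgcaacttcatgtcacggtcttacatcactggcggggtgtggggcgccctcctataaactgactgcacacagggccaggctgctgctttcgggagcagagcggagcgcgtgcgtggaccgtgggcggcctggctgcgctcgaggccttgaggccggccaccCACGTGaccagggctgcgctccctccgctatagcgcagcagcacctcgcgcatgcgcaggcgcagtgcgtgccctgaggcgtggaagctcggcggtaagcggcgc
Tdrd7: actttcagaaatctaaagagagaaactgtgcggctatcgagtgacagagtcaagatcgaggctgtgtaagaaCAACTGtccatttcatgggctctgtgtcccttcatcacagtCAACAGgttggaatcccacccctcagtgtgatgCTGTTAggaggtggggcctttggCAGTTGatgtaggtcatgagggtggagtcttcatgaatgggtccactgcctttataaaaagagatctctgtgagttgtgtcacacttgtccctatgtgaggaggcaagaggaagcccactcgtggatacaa

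The table of promoter windows matched 8 of the 10 genes. *Tdrd6* and *Rnf17* were not matched. A MYB core was present in 4 of the 8 windows, those of *Tdrd5*, *Tdrd7*, *Tdrd12* and *Tdrkh*, and in 49.7% of all 32851 windows of the same length. The *Tdrd7* window held 4 matches, that of *Tdrd5* 2, and those of *Tdrd12* and *Tdrkh* 1 each. Whether such matches bear on the genotype differences was not tested. The E-box was present in 3 of the 8, those of *Tdrd1*, *Stk31* and *Tdrd9*, the last with 2 matches, and in 7.15% of all windows. The E2F motif GCGGGAA was found in 1 of the 8, that of *Tdrd5*, and in 4.60% of all windows. The GC box GGGCGG was found in 4 of the 8 and in 35.7% of all windows, and the cyclic AMP response element TGACGTCA in 0 of the 8 and in 1.79% of all windows. The 4 printed windows differed in base composition, with 76.0% G and C for *Tdrd5*, 60.3% for *Tdrd1*, 65.3% for *Stk31* and 48.3% for *Tdrd7*, beside a median of 52.7% over all windows. These matches describe letters in the windows, and binding at them was not measured here.

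TDRD6, TDRD7 and RNF17 are the members best known from spermatids, where TDRD6 and TDRD7 shape the chromatoid body and RNF17 forms granules of its own. Their genes stayed at high levels in *Arid1a* cKO. *Tdrd6* (chromosome 17, 43615334 to 43631846) was at 1601, 1716, 1586 and 1645 CPM in *Arid1a* WT and at 1279, 1317, 1337 and 1271 CPM in *Arid1a* cKO, a log2 fold change of -0.33 ± 0.05 (edgeR, Benjamini-Hochberg adjusted p = 2.71e-05). *Tdrd7* (chromosome 4, 45965027 to 46034766) was at 464, 417, 384 and 468 CPM in *Arid1a* WT and at 610, 594, 573 and 581 CPM in *Arid1a* cKO, a log2 fold change of 0.44 ± 0.06 (edgeR, Benjamini-Hochberg adjusted p = 1.72e-05). The lowest *Arid1a* cKO library exceeded the highest *Arid1a* WT library for *Tdrd7*, and for *Tdrd6* the order was the opposite. Beside the rise of *Tdrd7* stands the rise of all 16 spermatid markers given above, by a median of 2.16 log2 units, and its part in the value for *Tdrd7* was not tested.

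The direction for *Rnf17* (chromosome 14, 56402650 to 56525032) depended on whether reads or transcripts were counted. In reads it was at 430, 412, 410 and 426 CPM in *Arid1a* WT and at 376, 337, 348 and 338 CPM in *Arid1a* cKO, a log2 fold change of -0.26 ± 0.05 (edgeR, Benjamini-Hochberg adjusted p = 0.000254). Per transcript it was at 198, 207, 199 and 196 TPM in *Arid1a* WT and at 285, 261, 268 and 262 TPM in *Arid1a* cKO. The genotypes did not overlap on either scale, and the sign was opposite. With transcript length offsets edgeR gave a log2 fold change of 0.53 (adjusted p = 9.20e-07), DESeq2 gave 0.55, limma on log2(TPM + 1) gave 0.42 and the same test after rescaling over the listed genes gave 0.27. On these per-length scales 2 Tudor genes rose and 8 fell, where the read counts gave 1 and 9.

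**Figure D2:**
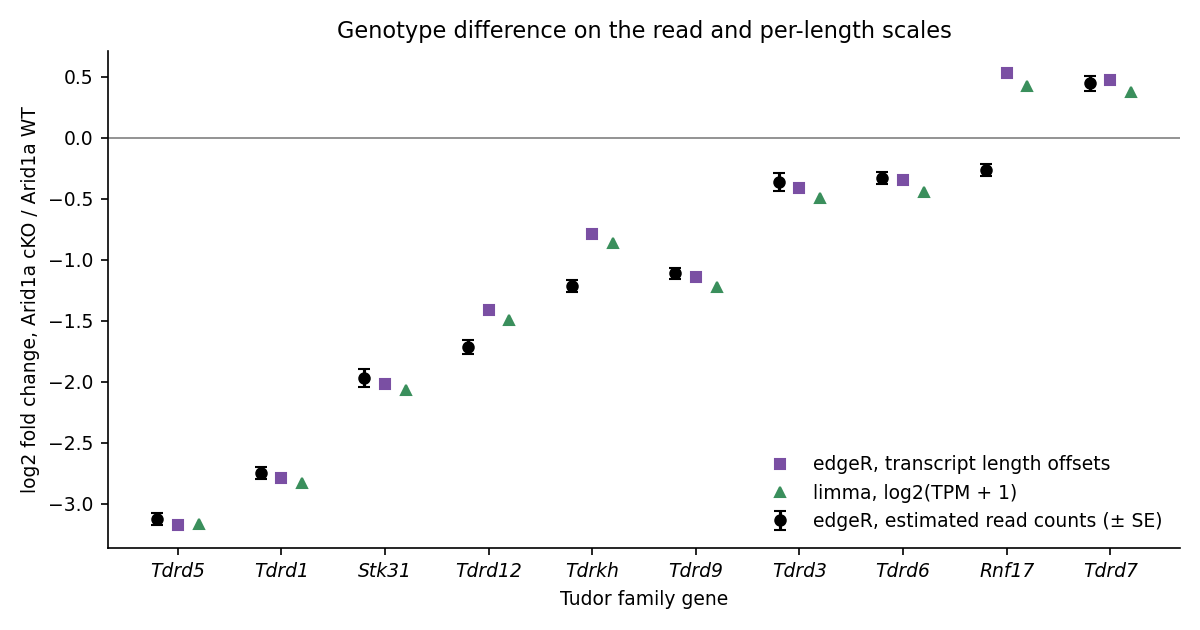
Log2 fold change of *Arid1a* cKO over *Arid1a* WT for each Tudor family gene from edgeR on estimated read counts (black, bars give the SE), edgeR with transcript length offsets (purple squares) and limma on log2(TPM + 1) (green triangles). *Rnf17* crosses 0, from -0.26 to 0.53 and 0.42, *Tdrkh* and *Tdrd12* move towards 0, and the other genes differ little between scales.

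The 2 scales are linked by the mean length of the transcripts to which a gene's reads were assigned, since an estimated count divided by a TPM is proportional to it. Set in bases on 1111 genes with 1 annotated transcript, this length for *Rnf17* was 3174, 3095, 3237 and 3209 bases in *Arid1a* WT and 1854, 1855, 1878 and 1857 bases in *Arid1a* cKO. The shift of -0.77 log2 units separated all 8 libraries (exact permutation test, two-sided, p = 0.0286, which is the smallest that 4 against 4 allows). *Tdrkh* shortened from 2538 ± 161 to 1889 ± 144 bases (SD, n = 4) and *Tdrd12* from 2303 ± 115 to 1858 ± 19.3 bases, by -0.43 and -0.31 log2 units, each with the same exact permutation p of 0.0286. *Tdrd1*, at 4928 ± 4.75 and 4939 ± 3.56 bases, also had no overlap, yet its shift was 0.0030 log2 units. The remaining 6 genes overlapped between genotypes and shifted by between -0.06 and 0.01 log2 units. For *Tdrd3*, *Tdrd5* and *Stk31* this depended on the scale, which in bases was chosen after values were seen. Scaled by the library median, as planned, each was longer in *Arid1a* cKO by 0.07 log2 units with an exact permutation p of 0.0286, and in bases the exact permutation p was 0.629, 0.6 and 0.486. A change of at least 0.25 log2 units without overlap was thus found for 3 of the 10 genes, all shorter in *Arid1a* cKO, beside 7.23% of 16529 genes with a length, of which 1023 were shorter and 172 longer. A shortening as large as that of *Rnf17* was found for 158 genes, 117 of them without overlap. *Tdrd6* averaged 4059 bases in *Arid1a* WT and 3990 in *Arid1a* cKO, below its shortest annotated coding transcript, of 5981 bases. Its only shorter annotated transcript is non-coding, of 468 bases. *Tdrd7* averaged 2870.5 and 2743.2 bases, below its coding transcripts of 3655 and 3716 bases. The TPM of these genes may therefore include short non-coding transcripts, and their coding share was not worked out.

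**Figure D3:**
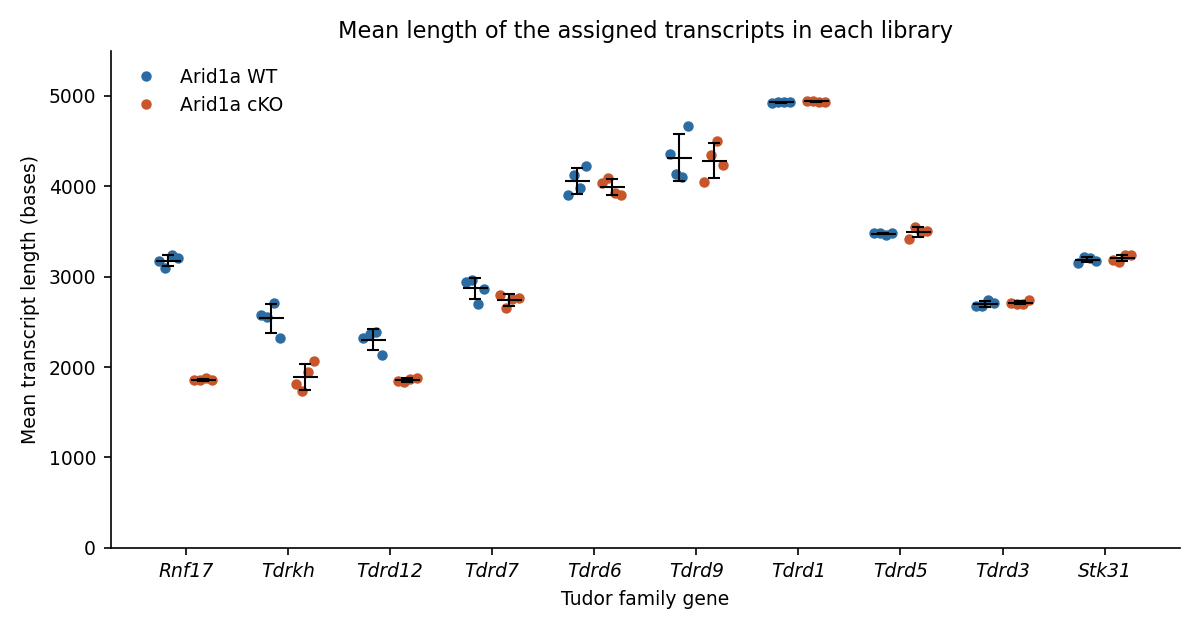
Mean length in bases of the transcripts to which the reads of each Tudor family gene were assigned, 1 point per library, bars for the mean and SD of 4 libraries, *Arid1a* WT in blue and *Arid1a* cKO in orange, on an axis that starts at 0. *Rnf17* (3179 against 1861 bases), *Tdrkh* and *Tdrd12* are separated between genotypes, and the other genes lie at nearly the same length in both.

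GENCODE M21 lists 6 *Rnf17* transcripts of 621 to 5264 bases. The longest has 37 exons and encodes 1640 residues. The short coding transcript, of 2077 bases, has 14 exons and encodes 626 residues. They part inside exon 14, which ends at base 56463192 in the long transcript and is spliced to an exon at 56465627 to 56465817, whereas in the short coding transcript it runs on to 56463432 and ends its reading frame in a stop codon, which completes the 48 further bases shown. The coding sequence at this point (plus strand, GENCODE M21 on GRCm38) is shown for both because it is where the long and the short coding transcript come to differ, with the 45 shared bases in lower case and the bases particular to each in capitals.
Rnf17 long: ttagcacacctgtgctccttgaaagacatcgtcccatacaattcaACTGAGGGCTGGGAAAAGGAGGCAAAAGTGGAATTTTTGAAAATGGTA
Rnf17 short: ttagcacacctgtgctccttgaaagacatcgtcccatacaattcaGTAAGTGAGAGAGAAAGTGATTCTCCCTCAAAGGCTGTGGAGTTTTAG

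The mean length in *Arid1a* WT, 3179 bases, lies between those of the 2 coding transcripts, and that in *Arid1a* cKO, 1861 bases, lies below the shorter one. The deposited tables give genes and not transcripts, so the mixture cannot be solved, but the mean length sets limits if the authors' transcript set held no *Rnf17* transcripts other than these 6 and held the longest. Under that condition the long transcript made up 29.7% to 56.4% of *Rnf17* molecules over the *Arid1a* WT libraries and 0% to 27.1% over the *Arid1a* cKO libraries. All shorter transcripts summed came to 86.8 to 145 TPM in *Arid1a* WT and 192 to 285 TPM in *Arid1a* cKO. These ranges do not overlap, while the limits for the long transcript, 61.3 to 112 TPM and 0 to 75.7 TPM, do.

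**Figure D4:**
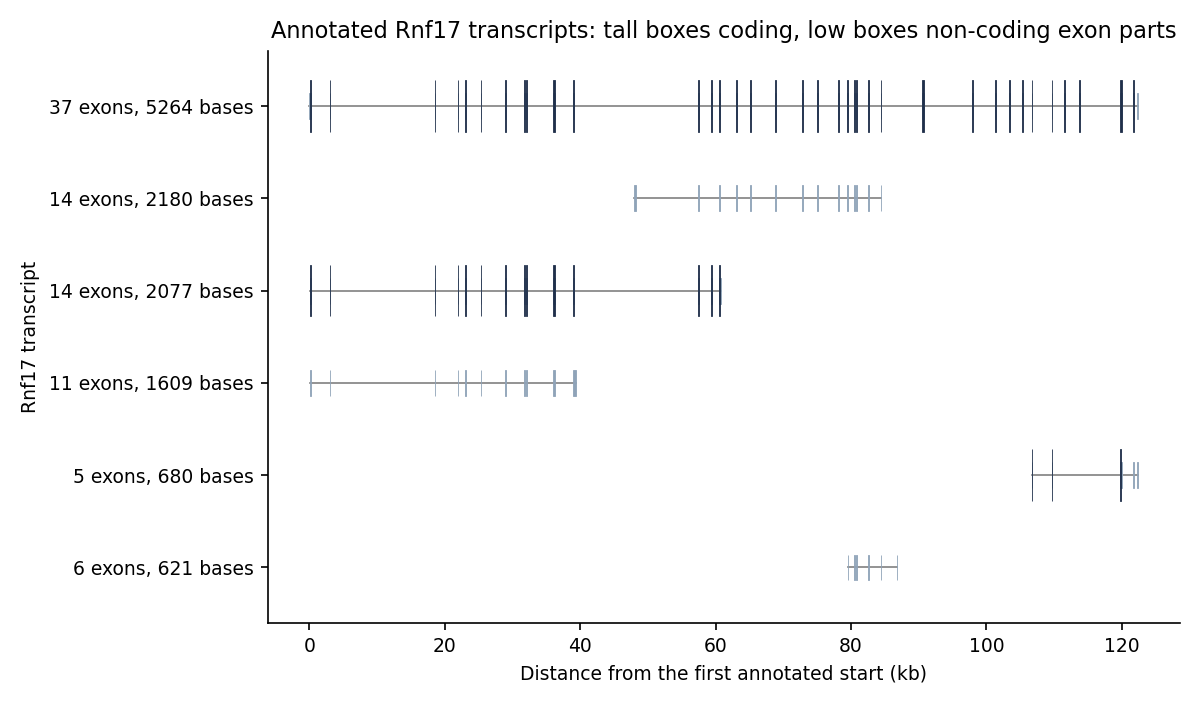
Annotated *Rnf17* transcripts drawn to scale in kb from the first annotated start, longest at the top, with coding parts of exons as tall dark boxes, other exon parts as low grey boxes and introns as lines. The transcript of 14 exons and 2077 bases follows the longest into exon 14 and ends there, and of the 6 transcripts the one of 5264 bases alone is longer than the 3179 bases averaged in *Arid1a* WT.

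TDRD3 acts outside the piRNA pathway. It reads methylated arginine on histones and RNA polymerase II and forms a complex with the topoisomerase TOP3B, which also binds FMRP. *Tdrd3* (chromosome 14, 87416178 to 87545508) was at 80.7, 74.4, 65.3 and 85.2 CPM in *Arid1a* WT and at 61.5, 57.6, 60.7 and 57.6 CPM in *Arid1a* cKO, a log2 fold change of -0.36 ± 0.07 (edgeR, Benjamini-Hochberg adjusted p = 0.000366). The lowest *Arid1a* WT library, at 65.3 CPM, was close to the highest *Arid1a* cKO library. *Top3b* also fell, from 111 to 129 CPM to 81.3 to 87.3 CPM (log2 fold change -0.55 ± 0.05), whereas *Fmr1*, which encodes FMRP, rose from 14.6 to 16.1 CPM to 52.6 to 56.2 CPM (log2 fold change 1.82 ± 0.06; edgeR, Benjamini-Hochberg adjusted p = 3.41e-07 and 5.98e-13).

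Genes that work with the Tudor family in the piRNA pathway moved in both directions. Of 17 such partners tested, 11 fell, 3 rose and 3 were not called, with a median log2 fold change of -1.09, and 9 of the 11 fell by at least 1 log2 unit. Of all genes tested 37.5% fell, 16% by at least 1 log2 unit, and 36.5% rose. *Piwil1*, which encodes MIWI, the main PIWI protein of pachytene piRNAs, fell 14.7-fold from 1538 to 1642 CPM to 106 to 112 CPM. *Piwil2*, which encodes MILI, fell 2.81-fold from 271 to 306 CPM to 104 to 107 CPM. *Pld6*, the mitochondrial nuclease that cuts piRNA precursors, fell by 2.70 log2 units, *Gpat2* by 1.79 and *Exd1*, whose product binds TDRD12, by 1.53. The 3 that rose were *Gtsf1*, a zinc finger partner of PIWI proteins (1.12 ± 0.07), *Btbd18*, which serves elongation at pachytene piRNA loci (1.00 ± 0.11), and *Mael*, which encodes a germ granule protein (0.37 ± 0.08; edgeR, Benjamini-Hochberg adjusted p = 3.23e-09, 1.19e-06 and 0.000672). With TPM rescaled over the listed genes the rise of *Btbd18* was 0.54 and *Mael* was not called (0.09; limma, Benjamini-Hochberg adjusted p = 0.00242 and 0.172). The 3 not called in read counts were the RNA helicase gene *Ddx4* (0.12 ± 0.05), *Fkbp6* (-0.12 ± 0.06) and the fetal PIWI gene *Piwil4*, which was at means of 0.316 and 0.143 CPM. *Ddx4* was called lower with TPM rescaled (-0.17, limma, Benjamini-Hochberg adjusted p = 0.00134). *Fkbp6* was called lower with edgeR and length offsets (-0.17, Benjamini-Hochberg adjusted p = 0.0340) and with TPM rescaled (-0.41, limma, Benjamini-Hochberg adjusted p = 1.52e-05). These partners and the 10 Tudor genes were compared in the same libraries, so their values are not independent of each other.

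Genes with Tudor domains that act elsewhere in the cell moved in both directions. Of 21 tested, 14 fell, 4 rose and 3 were not called, with a median log2 fold change of -0.27. By at least 1 log2 unit 3 of the 21 fell and 2 rose. Of all 17643 genes tested 37.5% fell and 36.5% rose, 2821 and 3632 of them by at least 1 log2 unit. The falls were led by *Lbr*, the lamin B receptor (-1.79 ± 0.05), the Polycomb accessory genes *Mtf2* (-1.74 ± 0.09) and *Phf1* (-1.19 ± 0.06), and *Setdb1*, an H3K9 methyltransferase gene (-0.81 ± 0.05). *Sgf29*, of the SAGA complex, rose by 2.30 ± 0.06 log2 units, *Akap1*, a mitochondrial anchor of kinase A, by 2.10 ± 0.05 and *Smndc1*, a splicing factor gene, by 0.60 ± 0.06. The fourth that rose, *Kdm4b*, a histone demethylase gene (0.23 ± 0.09), was not called under 13 of the 20 alternatives. Not called in read counts were *Smn1* (-0.05 ± 0.08), *Snd1* (0.11 ± 0.07) and *Phf19* (0.50 ± 0.54), of which *Smn1* was called lower with TPM rescaled (-0.26, limma, Benjamini-Hochberg adjusted p = 0.0264). *Akap1* and *Tdrkh*, which both encode Tudor proteins of the mitochondrial surface, thus moved in opposite directions.

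Of 17 further genes of the chromatoid body and of RNA decay, 9 fell, 4 rose and 4 were not called, with a median log2 fold change of -0.22, where 37.5% of all genes tested fell and 36.5% rose. *Upf1*, the helicase of nonsense-mediated decay, whose product is held in the chromatoid body with TDRD6, fell from 248 ± 6.31 to 58.0 ± 4.16 CPM (log2 fold change -2.10 ± 0.06; edgeR, Benjamini-Hochberg adjusted p = 1.80e-13). *Ago2* fell by 1.83 log2 units and the decapping gene *Dcp1a* by 0.94, or by 0.58 with edgeR and length offsets. *Dicer1* (0.58 ± 0.08) and *Fxr1* (0.58 ± 0.07, or 0.34 with TPM rescaled) were among those that rose, beside *Fmr1*. *Ddx25* (-0.05 ± 0.07), *Ybx2* (-0.10 ± 0.06), *Smg6* (-0.06 ± 0.05) and *Upf3a* (0.02 ± 0.06) overlapped between genotypes and were not called in read counts, although all 4 were called lower with limma after TPM were rescaled over the listed genes (-0.34, -0.38, -0.38 and -0.26; Benjamini-Hochberg adjusted p = 6.91e-05, 0.000128, 2.39e-05 and 0.000139).

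**Figure D5:**
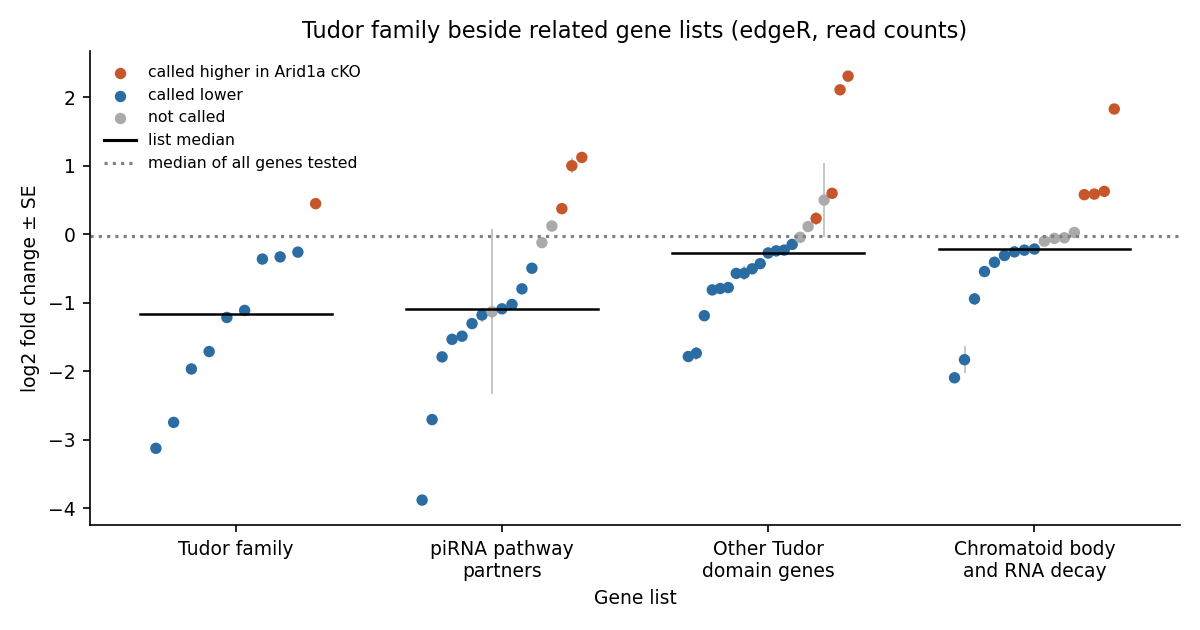
Log2 fold change of *Arid1a* cKO over *Arid1a* WT with its SE for each gene of the Tudor family and of the 3 related lists, orange where called higher, blue where called lower and grey where not called, with the median of each list as a black line and that of all genes tested as a dotted line. The medians are -1.16 for the Tudor family, in which *Rnf17* lies below 0 in reads and above 0 per length, -1.09 for piRNA partners, -0.27 for other Tudor domain genes and -0.22 for chromatoid body and RNA decay genes.

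Over the 8 libraries and 12997 genes expressed at a mean log2 CPM of 1 or more, the genes whose profile was nearest to that of *Tdrd5*, by the root mean square difference of log2 CPM after centring each gene, were *Mllt10* (0.055), *Cers3* (0.058) and *Tmem18* (0.062). Their log2 fold changes were -3.07, -3.19 and -3.07. Nearest to *Tdrd7*, which rose the most in read counts, were *Ube2d2b* (0.023), *Ap3b1* (0.024) and *Tex10* (0.024), with log2 fold changes of 0.46, 0.45 and 0.48 in reads, and of 0.18, 0.15 and 0.07 with TPM rescaled over the listed genes (limma, Benjamini-Hochberg adjusted p = 0.00389, 0.0106 and 0.120). This likeness rests mainly on the genotype difference and describes these libraries only.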

How the data were processed

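RNA-seq libraries of Sta-Put enriched pachytene spermatocytes from 4 *Arid1a* WT and 4 *Arid1a* cKO samples were compared, grouped by the genotype in their labels. The authors quantified paired-end reads with Salmon (version not given in the sources used here), summed transcripts to Entrez genes of mm10 with tximport, and deposited estimated counts, not scaled for depth or transcript length, and TPM. The authors' deposited table of differential expression holds log2 fold changes and p-values from DESeq2 and was not used.

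Estimated counts were rounded, and genes with at least 10 counts summed over 8 libraries were tested with edgeR 4.0.16 (TMM, then glmQLFit and glmQLFTest with genotype alone in the design, R 4.3.3), with Benjamini-Hochberg adjustment over all 17643 genes and calls at 0.05. CPM used TMM-adjusted library sizes, and log2 CPM a prior count of 2. On simulated counts for 17529 genes with 200 changed 2-fold, 89.0% were recovered and 5.32% of calls were unchanged genes. In the data 74% of genes tested were called, so this simulation does not measure false calls under so broad a difference. Mean transcript length is count divided by TPM, scaled by the library median as planned or set in bases on 1111 genes with 1 GENCODE M21 transcript, of which 95.8% to 96.0% came within 0.1% of the annotated length, and was compared by two-sided exact permutation over 70 assignments. Of 21058 genes, 21036 matched RefSeq of GRCm38.p6, from which gene coordinates and promoter windows came. Alternatives were DESeq2 1.42.0, other scalings, filters and thresholds, the replicate number as a block, length offsets, limma 3.58.1 on log2(TPM + 1) and log2(TPM + 0.1), and each library left out. The Tudor genes and the other lists were chosen with earlier results of these data known. Of each list, up to 4 called genes with the largest rise and up to 4 with the largest fall, at an average log2 CPM of at least 1 and without overlap, were named, plus *Top3b*, *Fmr1*, *Piwil1*, *Piwil2*, *Mybl1* and *Arid1a*. Some genes named by this rule are not reported here. *Oaz3*, *Kdm4b* and the genes named as not called, the 0.25 log2 threshold for length, DESeq2 with length offsets, TPM rescaling and the setting in bases were chosen after values were seen. Libraries of a genotype differed by more than counting noise. The chi-square per degree of freedom was 4.58 to 19.1 between *Arid1a* WT libraries and 1.74 to 3.59 between *Arid1a* cKO libraries, which lay closer together.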

Additional observations from a re-analysis of the deposited data

Results flagged for a closer look

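Among 42 groups of 4 libraries, given by levels and mean transcript lengths of the Tudor genes and the level of *Arid1a*, 2 held a library far from the other 3, and chance alone gives about 1 in 20, or 2.1 of 42. The mean transcript length of *Tdrd3* in *Arid1a* cKO replicate 4 was 2737 bases, beside 2702 to 2708 bases in the other 3, and its gap to the nearest was 0.832 of the range. The mean transcript length of *Rnf17* in *Arid1a* cKO replicate 3 was 1878 bases, beside 1854 to 1857 bases, a gap of 0.859 of the range. The *Rnf17* value stayed far under the lowest *Arid1a* WT library, at 3095 bases.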

How the results depend on the processing

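Over 1368 recomputed values, 1308 kept their direction and their side of the threshold, 15 were no longer called, 27 became called, 7 reversed and 11 moved. The log2 fold changes of the 9 Tudor genes other than *Rnf17* kept both in all 180 recomputed values. For *Rnf17*, -0.26 became 0.53 with edgeR and length offsets, 0.42 with limma on log2(TPM + 1), 0.43 on log2(TPM + 0.1), 0.55 with DESeq2 and length offsets, and 0.27 with TPM rescaled over the listed genes. The number of Tudor genes called higher was 2 under each of these 5. All 5 divide reads by transcript length, which fell for *Rnf17*. Among the other genes named, with 858 values, the 2 that reversed were not called in read counts, *Ddx4* at -0.17 and *Upf3a* at -0.26 with TPM rescaled, a scaling under which the median of all genes was -0.13, beside -0.02 in read counts. Without any 1 library *Rnf17* ranged from -0.30 to -0.24, and 1 Tudor gene was called higher and 9 lower in each case. Mean transcript length set in bases instead of by the library median moved the log2 ratio of *Tdrd1* from 0.06 to 0.0030, *Tdrd3* from 0.07 to 0.0068, *Tdrd5* from 0.07 to 0.0056, *Tdrd6* from 0.03 to -0.024, *Tdrd7* from -0.01 to -0.065 and *Stk31* from 0.07 to 0.0073, and *Tdrd9*, by less than the spread between libraries, from 0.05 to -0.01, because the library median shifts genes with 1 transcript by 0.06. Same-numbered libraries did not deviate together (correlations -0.03 to 0.04) and share only a number, and with the replicate number as a block 1 Tudor gene was called higher and 9 lower, as without it. Over all genes, 4854 to 6554 were called higher and 5898 to 7624 lower.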
